A study of Mus musculus with 33 samples.

Results

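The glycolysis and hypoxia response genes described here are 32 mouse genes chosen by name: 16 glycolytic enzymes, 4 glucose and lactate transporters, 3 regulators of glycolytic flux, 4 genes of the hypoxia-inducible factor (HIF) switch and 5 other hypoxia targets. Their rows were taken from 4 tables of gene expression in mouse bone marrow populations, in which 38899 genes are common to all tables, and 32 of 32 names were found. The rule uses names only, though the members were chosen with earlier results of these data known. The level of a gene is given as FPKM, a read count scaled to gene length and to the size of the library. A difference is the difference of group means of log2(FPKM + 1) ± its standard error, and means are given ± SD over 3 libraries.

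RNA was sequenced from 33 libraries, 3 in each of 11 groups, all from C57BL/6 mice aged 8 to 12 weeks. Untreated wildtype mice gave 3 groups from femur and tibia. BMC are whole bone marrow, Lin- cells are those without markers of mature blood lineages, and LSK cells are the Lin- Sca1+ cKit+ fraction that contains blood stem cells. In the other 8 groups endothelial cells (EC), the lining of blood vessels, were collected by a fluorescent reporter. Cdh5-mTnG mice, whose reporter is tied to the endothelial gene Cdh5, gave untreated bone EC (GFP+), irradiated bone EC (GFP+, 9 Gy), untreated diaphysis EC (GFP+, femur shaft) and 9Gy1D EC (Tomato+/GFP+, 9 Gy). Mice with Vav1-Cre, R26-DTR and Cdh5-mTnG gave Vav1 control EC and Vav1 DTX EC (both GFP+). In their labels both of those groups carry the same genotype and diphtheria toxin. Titles (ctrl and DTX) and sample descriptions, which end in Vav1-Cont or Vav1-Cre, tell them apart. Whether they differ in Cre is therefore not settled by the labels. Apln-CreERT2 R26-mTmG mice treated with tamoxifen gave Apln+ EC (GFP+), and Esm1-CreER R26-mTmG mice treated with tamoxifen gave Esm1+ EC (Tomato+/GFP+). In these lines GFP marks cells in which Cre recombined the reporter, and their descendants. Vav1-Cre is driven by a promoter of blood cells and R26-DTR encodes the diphtheria toxin receptor. The labels give no time after irradiation or toxin, and they do not say that replicates came from separate mice, so p-values measure the spread between libraries, which may be technical.

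Glycolysis turns glucose into pyruvate in the cytoplasm, and lactate dehydrogenase turns pyruvate into lactate, which leaves the cell through monocarboxylate carriers. When oxygen is low, the prolyl hydroxylases Egln1 and Egln3 no longer mark the alpha subunits HIF-1 alpha (Hif1a) and HIF-2 alpha (Epas1) for destruction, and these bind with Arnt to short DNA motifs and raise transcription of many glycolytic genes. The control acts mainly on the protein, so the transcript of Hif1a is not a measure of HIF-1 activity. Bone marrow is a tissue of low oxygen tension, and its endothelium is known for glycolytic metabolism and for high Epas1.

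Core letters of the HIF motif lie near the start of most of the genes. In RefSeq (GRCm38.p6), 29 of the 32 genes were matched to the 250 bases before their start; Epas1, Slc2a3 and Angptl4 were not. ACGTG or GCGTG on either strand, counted with overlaps so that CACGTG counts once on each strand, was found before the start of 27 of the 29 (93.1%), against 41.5% of all 27025 genes. Some genes have more than 1 start, and a gene counted if any of its windows matched. By window the shares were 35 of 42 (83.3%) for the members and 38.6% of 32851 for all promoters. The members' windows also had more G and C, with a median of 62.2% against 52.4%, and so short a motif occurs often by its letters alone. No match was found for Gpi1 or Tpi1. A match is a description of letters and not a binding site. The windows below are shown because they cover 3 genes that were lower and 3 that were higher in one of the irradiated groups, Pgk1, Slc16a3 and Ldha against Hif1a, Pdk1 and P4ha1. They are printed 5′ to 3′ on the gene's strand with the motifs in capitals, and they end before RefSeq's start, which for Ldha, Slc16a3 and Hif1a lies inside the longer gene of the files' annotation.
Pgk1, chrX:106186850-106187099, plus strand: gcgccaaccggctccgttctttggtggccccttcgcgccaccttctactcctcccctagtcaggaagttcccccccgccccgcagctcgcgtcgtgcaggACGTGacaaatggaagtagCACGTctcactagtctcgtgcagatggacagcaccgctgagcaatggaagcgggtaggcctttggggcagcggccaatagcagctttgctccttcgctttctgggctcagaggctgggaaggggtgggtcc
Ldha, chr7:46845554-46845803, plus strand: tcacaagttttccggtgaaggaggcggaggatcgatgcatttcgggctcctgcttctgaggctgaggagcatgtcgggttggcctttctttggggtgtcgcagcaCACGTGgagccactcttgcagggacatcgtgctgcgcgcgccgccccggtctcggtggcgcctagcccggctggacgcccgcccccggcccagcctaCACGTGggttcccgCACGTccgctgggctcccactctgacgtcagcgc
Slc16a3, chr11:120948817-120949066, plus strand: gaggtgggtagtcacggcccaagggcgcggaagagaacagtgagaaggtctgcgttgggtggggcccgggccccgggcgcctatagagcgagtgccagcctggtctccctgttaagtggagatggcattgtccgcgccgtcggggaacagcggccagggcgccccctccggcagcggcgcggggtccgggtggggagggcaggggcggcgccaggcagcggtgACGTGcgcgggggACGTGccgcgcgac
Pdk1, chr2:71872974-71873223, plus strand: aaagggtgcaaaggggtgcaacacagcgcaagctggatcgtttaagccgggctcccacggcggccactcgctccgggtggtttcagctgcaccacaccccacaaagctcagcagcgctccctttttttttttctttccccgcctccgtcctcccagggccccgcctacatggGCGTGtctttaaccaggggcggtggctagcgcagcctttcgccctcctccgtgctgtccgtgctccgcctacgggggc
Hif1a, chr12:73907617-73907866, plus strand: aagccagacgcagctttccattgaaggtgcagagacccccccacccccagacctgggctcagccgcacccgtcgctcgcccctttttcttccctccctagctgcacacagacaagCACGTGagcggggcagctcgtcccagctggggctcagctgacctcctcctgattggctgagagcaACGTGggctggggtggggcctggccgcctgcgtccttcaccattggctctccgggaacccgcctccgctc
P4ha1, chr10:59323046-59323295, plus strand: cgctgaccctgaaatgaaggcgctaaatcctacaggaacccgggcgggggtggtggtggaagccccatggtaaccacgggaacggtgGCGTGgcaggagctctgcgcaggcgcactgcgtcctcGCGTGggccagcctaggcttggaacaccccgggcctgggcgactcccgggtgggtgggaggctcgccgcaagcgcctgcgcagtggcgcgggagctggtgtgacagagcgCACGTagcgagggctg
The Ldha window shown held 5 matches, Hif1a and P4ha1 3 each, Pgk1 and Slc16a3 2 each and Pdk1 1. Of the windows shown, those of Ldha, Pgk1, Slc16a3 and Hif1a held ACGTG and no GCGTG, and that of Pdk1 held GCGTG and no ACGTG. Ldha and Pdk1 each have another window, not shown. It held 1 GCGTG and no ACGTG for Ldha, and no match for Pdk1.

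Depth was 1.55 to 12.29 M reads per library (M, the SI prefix mega), lowest in LSK. Cell content touches every result here. The summed level of 12 endothelial markers was 1053 to 6373 FPKM in the 24 endothelial libraries, against 23.0 to 121 FPKM in the other 9. The sum of 10 neutrophil markers was 28241 to 143104 FPKM in 21 endothelial libraries, a range that includes whole marrow (84083 to 111747 FPKM), and 1000 to 4436 FPKM in irradiated bone EC. In such bulk samples fewer cells of a type and less RNA per cell cannot be told apart. Skeletal muscle markers, a list of 10 genes chosen after their values were seen, summed to 3373 FPKM in bone EC replicate 2 and 11486 FPKM in irradiated bone EC replicate 2, against 3.2 to 582 FPKM elsewhere. Apln+ EC replicate 1, Vav1 DTX EC replicate 2 and Lin- replicate 3 stood apart from their groups. Esm1+ EC replicates 1 and 2 differed far less than other pairs, with a chi-square per degree of freedom of 1.39 against 27.0 and 28.5 with replicate 3. Reads of Gapdh, Eno1, Pgk1, Pgam1, Tpi1, Ldha and Aldoa are uncertain because these genes have near-identical copies elsewhere, such as Gm5506 for Eno1. In the annotation 18 members overlap another gene, 14 of them on the opposite strand, and whether counting used strand is not given in the sources used here. Members below the filter on low values were not tested: Aldoc and Car9 in irradiated bone EC against bone EC, Aldoc in the Vav1 comparison and in bone EC against BMC or Lin-, Car9 in the Apln+ and 9Gy1D comparisons, and Aldoc and Ankrd37 in Lin- against BMC.

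**Figure D1:**
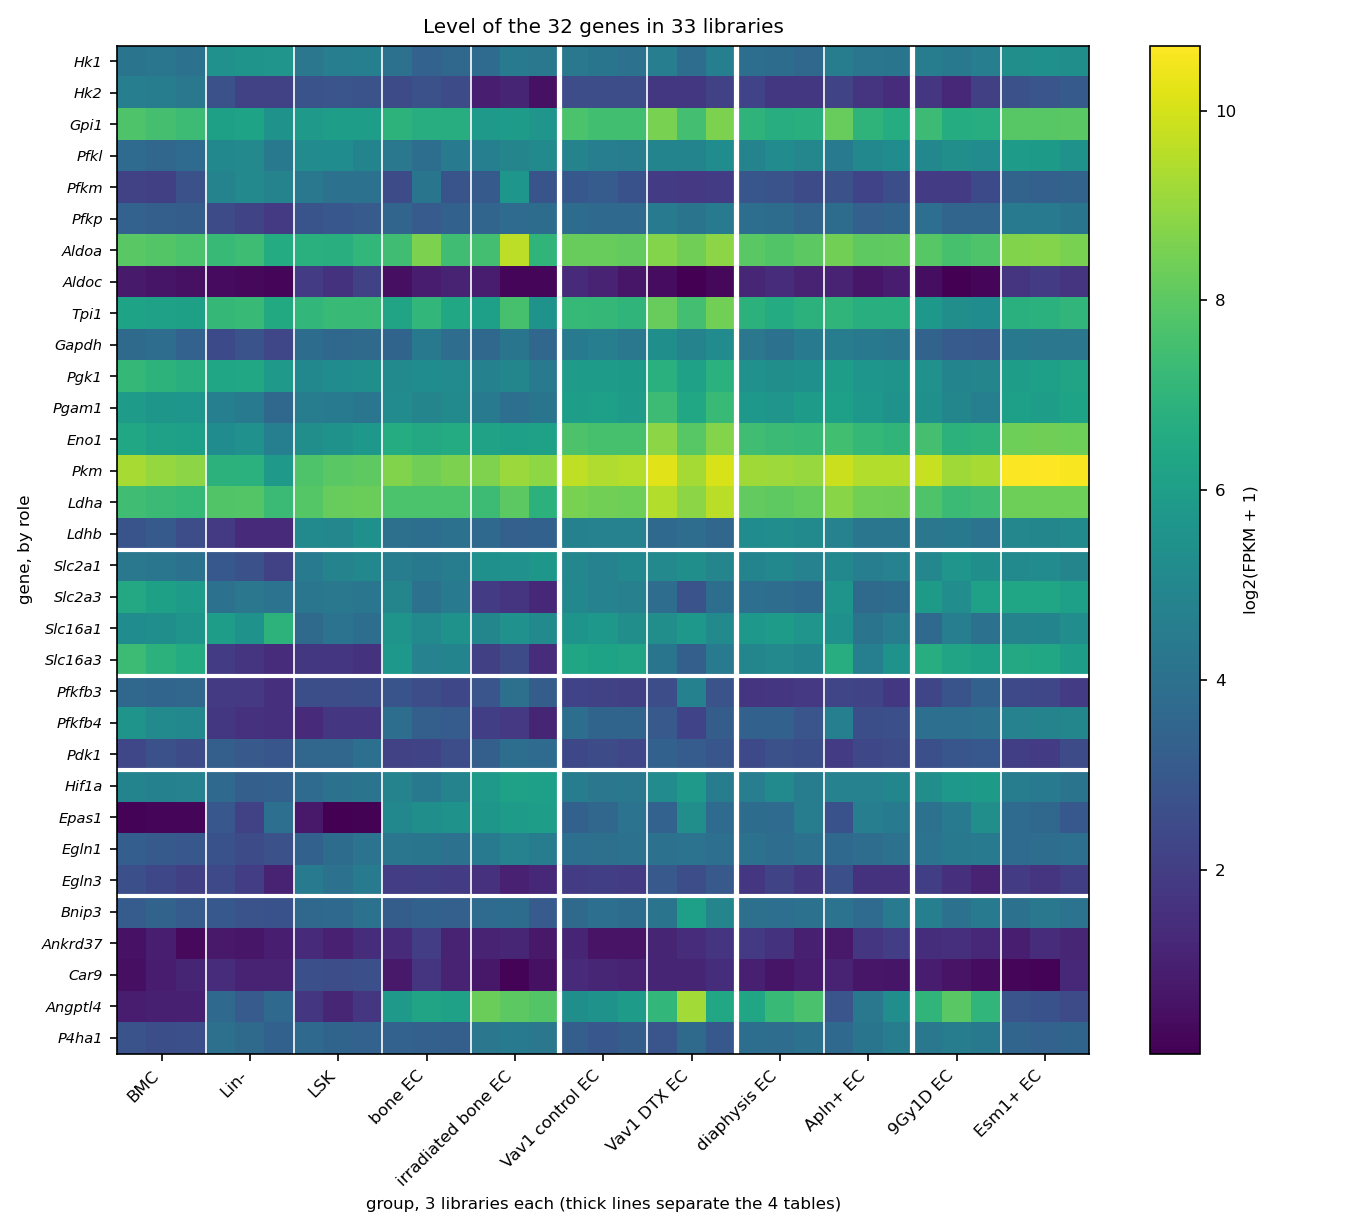
Level of each gene as log2(FPKM + 1), coloured from dark (low) to yellow (high), in rows by role, with the 33 libraries in columns by group. Pkm, Aldoa and Ldha are among the brighter rows, while Aldoc, Ankrd37 and Car9 are dark, and Epas1 is dark in BMC and LSK only. The tables were normalized separately, so steps across thick vertical lines were not tested.

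Among the enzymes, Pkm (pyruvate kinase, the last step to pyruvate) had the highest mean in 9 of 11 groups, and Ldha in Lin- and LSK. Pkm ran over the libraries from 54.7 to 1647 FPKM, with a median of 577 FPKM. Aldoa (aldolase), Ldha (the lactate dehydrogenase of anaerobic glycolysis), Eno1 (enolase), Gpi1 (glucose-6-phosphate isomerase) and Tpi1 (triosephosphate isomerase) followed, with medians over 33 libraries of 249, 261, 123, 121 and 117 FPKM. Aldoc, the aldolase of brain, had the lowest enzyme level, with a median of 0.777 FPKM. Gapdh, usually an abundant transcript, was listed at a median of 15.9 FPKM, beside the doubt over its copies. The highest group mean of 8 of the 16 enzymes was in Vav1 DTX EC (Gpi1, Pfkp, Aldoa, Tpi1, Gapdh, Pgam1, Eno1 and Ldha). These orders cross tables and carry no test.

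Paired isoforms took different places. Hexokinase 1 (Hk1) was highest in Lin- (44.9 ± 2.69 FPKM), and hexokinase 2 (Hk2), the inducible form, in BMC (21.4 FPKM). The median ratio of Hk1 to Hk2 over libraries was 0.817 in BMC and 16.5 in irradiated bone EC. The ratio of Ldha to Ldhb, the form tied to lactate use, was lowest in LSK and diaphysis EC, with medians of 7.54 and 7.67, and highest in Lin-, with a median of 104. Within Lin-, Ldhb was at 2.61, 1.54 and 1.51 FPKM. The muscle form of phosphofructokinase, Pfkm, was at 27.0, 32.7 and 26.8 FPKM in Lin-, above each of its other libraries except irradiated bone EC replicate 2, at 49.8 FPKM.

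The lactate exporter Slc16a3 (MCT4) and the glucose carrier Slc2a3 (GLUT3) spanned the widest ranges of the transporters. Slc16a3 was at 163, 117 and 97.1 FPKM in BMC, and at 2.78, 2.17 and 1.66 FPKM in Lin-. It was at 2.46, 2.31 and 2.09 FPKM in LSK and at 3.18, 4.79 and 1.66 FPKM in irradiated bone EC. Whole marrow was thus high and the other 3 groups low, and their ranges overlap one another. Neutrophil markers summed to 46 to 391 FPKM in Lin- and LSK, far below BMC. Their part in the carrier's level was not tested.

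**Figure D2:**
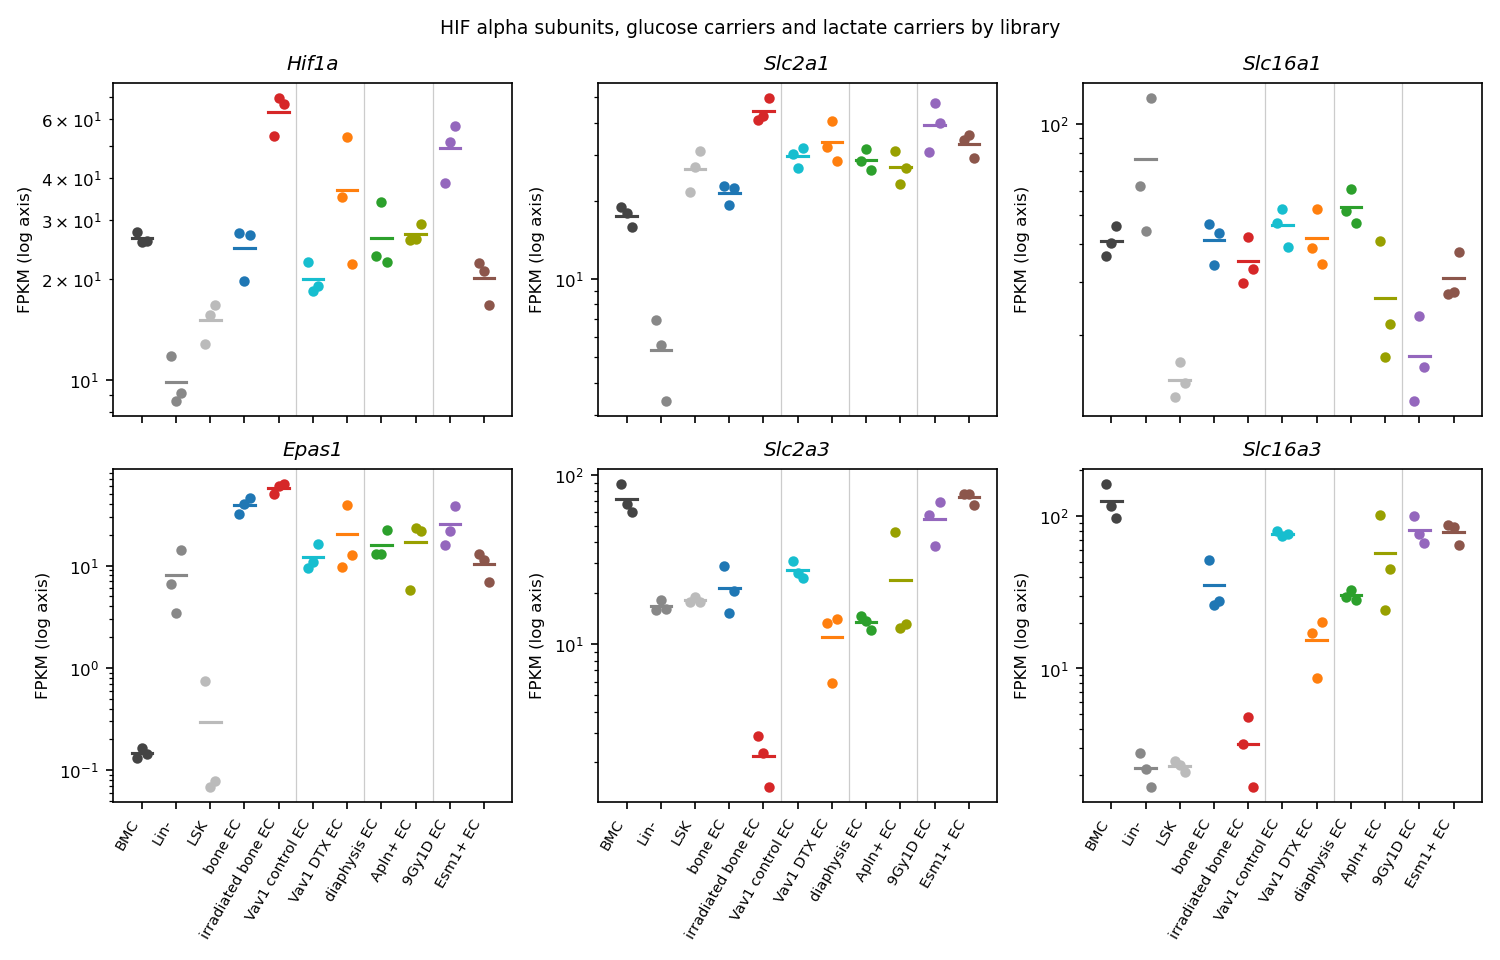
FPKM on a log axis for the HIF alpha subunits (left), glucose carriers (middle) and lactate carriers (right), 1 point per library and a bar at the group mean. Slc2a3 and Slc16a3 are lowest or among the lowest in irradiated bone EC, where Hif1a, Epas1 and Slc2a1 reach their highest means, and Epas1 lies below 1 FPKM in BMC and LSK.

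Epas1 (chr17:86753700-86833410, GRCm38) differed widely between the populations. It was at 32, 39.7 and 45.4 FPKM in bone EC and at 0.13, 0.165 and 0.145 FPKM in BMC, from 622 to 875 reads against 3 or 4 reads. In LSK it was at 0.74, 0.0681 and 0.0776 FPKM, from 9, 1 and 1 reads. In Lin- it was at 6.65, 3.45 and 14.3 FPKM, so the lineage-negative libraries sat between marrow and endothelium. Those Lin- libraries also held cartilage markers at 285 to 839 FPKM and stromal and osteoblast markers at 1221 to 3639 FPKM, and the part of these in Epas1 was not tested. Hif1a (chr12:73901375-73947530) varied less, from a group mean of 9.88 FPKM in Lin- to 63.3 FPKM in irradiated bone EC. The ratio of Epas1 to Hif1a was above 1 in each bone EC library (1.17 to 2.01) and 0.864 to 0.943 in irradiated bone EC.

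Egln3, Car9 and Pdk1 had their highest means in LSK cells, while Angptl4, Bnip3, Ankrd37 and P4ha1 had theirs in other groups. The oxygen sensor Egln3 was at 20.7, 15.2 and 21.5 FPKM there, against a range of 1.05 to 7.26 FPKM in the other 30 libraries. Car9, the carbonic anhydrase used as a marker of hypoxia, was at 5.31, 5.02 and 5.36 FPKM, against at most 2.13 FPKM elsewhere. Pdk1, which holds pyruvate back from the citric acid cycle, averaged 12.0 FPKM there and 11.8 FPKM in irradiated bone EC. Of 20 other HIF pathway genes 7 were higher in bone EC than in LSK and 6 lower. Over all genes tested 60.1% were called there, 29.5% higher and 30.6% lower, so this count lay near the share of all genes. Among the lower, Vegfa was at 89.4 ± 11.9 FPKM in LSK and 8.37 ± 3.69 in bone EC, and Hilpda, a lipid droplet protein, at 188 ± 49.3 and 20.2 ± 2.03.

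Irradiation of bone EC was compared within one table with untreated bone EC. Lactate and glucose carriers split: Slc2a3, Slc16a3 and the flux enzyme Pfkfb4 fell steeply, while Slc2a1, Pdk1, Hif1a, Angptl4 and P4ha1 rose. When libraries were scaled to endothelial markers, Slc2a1, P4ha1, Pdk1 and Hif1a did not pass. Slc2a1 and P4ha1 were slightly below 0 on that scale. Of 30 members tested 8 were higher and 10 lower, where 41.9% of all 13044 genes tested were called, 22.5% higher and 19.4% lower. The groups did not overlap for 19 of the 30, and for 54.2% of all genes. The glycolytic enzymes counted 1 higher and 6 lower of 15, with a median difference of -0.22 against 0.06 over all genes. All 4 HIF genes were called, 3 of them higher, with a median of 0.51.

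Of the enzymes, Hk2 was at 0.945, 1.25 and 0.478 FPKM in irradiated bone EC and at 4.76, 5.48 and 4.76 FPKM in bone EC, a difference of -1.68 ± 0.19 (adjusted p = 0.00068). Hk2 averaged 0.891 FPKM after irradiation and passed the filter on low values through untreated bone EC. Gpi1 was at 54.9, 58.0 and 47.5 FPKM after irradiation and at 121, 101 and 103 FPKM without it (difference -1.01, adjusted p = 0.0015). Neither gene's groups overlapped, with every irradiated library below every control. Pgam1 (phosphoglycerate mutase), Ldhb, Pgk1 (phosphoglycerate kinase) and Eno1 were lower by smaller amounts, with differences of -0.87, -0.51, -0.47 and -0.44. Pfkl, the liver form of phosphofructokinase, was the only enzyme called higher, from 17.9 ± 3.45 to 28.9 ± 4.69 FPKM (difference 0.67, adjusted p = 0.027), and it was lower on the endothelial scale (-0.56, adjusted p = 0.028). Of the 15 enzymes tested 6 had differences above 0, up to 0.69.

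For Pfkm, Aldoa and Tpi1 the second replicate of both groups stood apart. Pfkm was at 7.46, 49.8 and 6.14 FPKM in irradiated bone EC and at 4.62, 17.5 and 6.06 FPKM in bone EC. Aldoa was at 182, 801 and 130 FPKM and at 173, 380 and 170 FPKM in the same order. These are the libraries with high skeletal muscle markers, and Pfkm and Aldoa are abundant in muscle. The part of muscle RNA in these values was not tested. None of the 3 enzymes passed the test (adjusted p = 0.52, 0.79 and 0.76). Without replicate 2 of both groups, 10 of 29 members were called, where 21.3% of all genes were: Hif1a, Slc2a1, Pdk1, Angptl4 and P4ha1 higher and Slc2a3, Slc16a3, Pfkfb4, Gpi1 and Pgam1 lower.

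**Figure D3:**
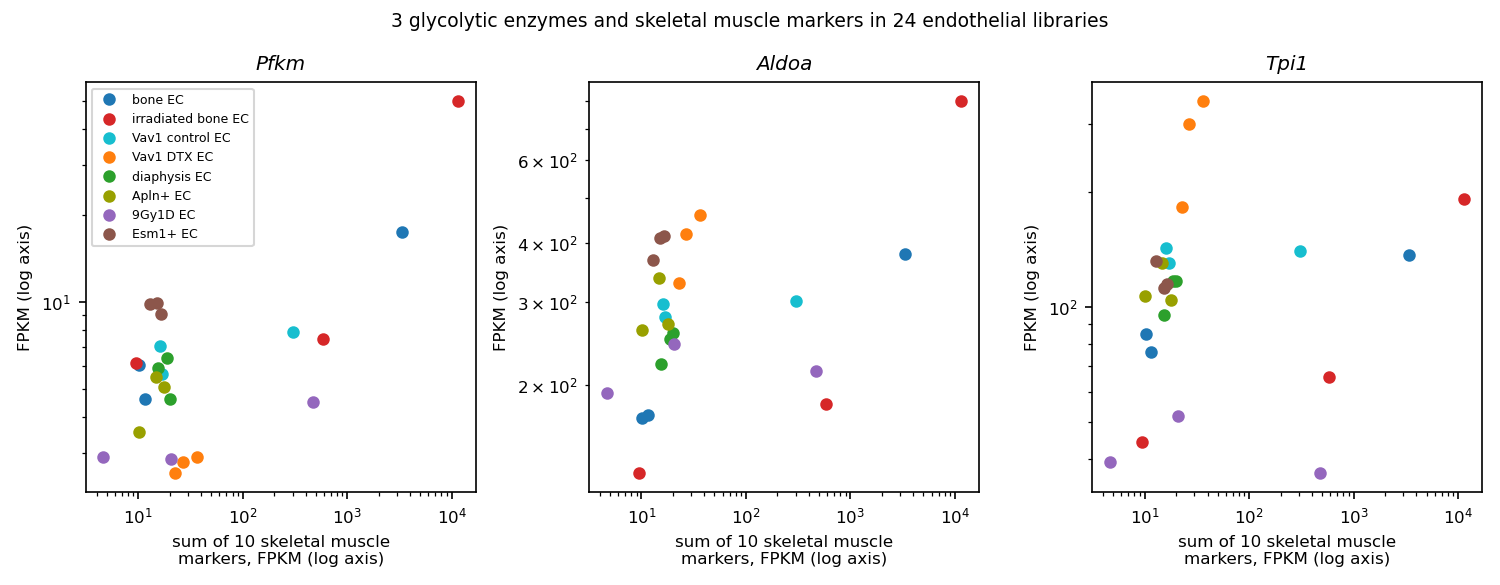
FPKM of Pfkm, Aldoa and Tpi1 against the sum of 10 skeletal muscle markers in FPKM, both on log axes, 1 point per library for the 24 endothelial libraries. The points with the 2 highest muscle sums, 3373 and 11486 FPKM, are bone EC replicate 2 and irradiated bone EC replicate 2, where Pfkm reads 17.5 and 49.8 FPKM.

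Transporters held the 2 largest differences of any member in this comparison. Slc16a3 (chr11:120948480-120960868) was at 3.18, 4.79 and 1.66 FPKM after irradiation and at 51.9, 26.3 and 27.9 FPKM in untreated bone EC, a difference of -3.11 ± 0.35 (adjusted p = 0.00066). Slc2a3 (chr6:122727809-122801640) was at 2.87, 2.27 and 1.43 FPKM against 29.0, 15.3 and 20.5 FPKM, a difference of -2.80 ± 0.27 (adjusted p = 0.00041). Slc2a1 (GLUT1), the main glucose carrier of endothelium, was at 40.8, 42.3 and 49.9 FPKM against 22.8, 19.3 and 22.5 FPKM (difference 1.01, adjusted p = 0.0014). For all 3 carriers the groups did not overlap, and scaled to endothelial markers Slc2a1 stood at -0.23 (adjusted p = 0.28). Slc2a1 was 14.2 to 34.9 times Slc2a3 after irradiation and 0.787 to 1.26 times Slc2a3 before. Slc16a1 (MCT1), the carrier that also takes lactate up, was at 35 ± 6.44 and 41.3 ± 6.48 FPKM and did not pass (adjusted p = 0.34). Neutrophil markers, which were 47040 to 47606 FPKM in bone EC, moved with the carriers that fell, and Slc2a3 and Slc16a3 were also high in whole marrow. Their part was not tested.

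Among flux regulators, Pfkfb4 was at 3.05, 2.51 and 1.25 FPKM after irradiation and at 14.1, 8.68 and 7.8 FPKM without (difference -1.78, adjusted p = 0.0028). Its relative Pfkfb3, the form endothelial cells use to drive glycolysis in sprouting, was at 6.31, 14.9 and 8.27 FPKM against 5.99, 5.02 and 4.16 FPKM. These groups do not overlap, but the difference of 0.77 did not pass (adjusted p = 0.071). Pdk1 was at 8.8, 13.9 and 12.9 FPKM against 3.34, 3.74 and 4.96 FPKM (difference 1.35, adjusted p = 0.0023), with no overlap, and on the endothelial scale the difference was 0.24 (adjusted p = 0.26).

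Hif1a was at 53.4, 69.7 and 66.7 FPKM after irradiation and at 27.4, 19.8 and 27.1 FPKM without, a difference of 1.32 ± 0.18 (adjusted p = 0.0013). Epas1 was at 50, 60.2 and 62.8 FPKM against 32, 39.7 and 45.4 FPKM (0.56, adjusted p = 0.034), and Egln1 at 23.4 ± 2.51 against 16.8 ± 1.14 FPKM (0.45, adjusted p = 0.031). Egln3 went the other way, from 2.95 ± 0.14 to 1.48 ± 0.496 FPKM (-0.69, adjusted p = 0.021). The sum of endothelial markers was 4700 to 6373 FPKM after irradiation and 1616 to 2106 FPKM before. When libraries were scaled to these markers, which moved the median of all genes to -1.0 and called 75.7% of them, 1 member was higher and 23 lower. Epas1 and Egln1 were called lower (-0.70 and -0.77) and Hif1a differed by 0.08 (adjusted p = 0.75). The rise of Epas1 and Egln1 thus held relative to the library and not relative to the endothelial markers, where both still lay above the median of all genes.

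Of the other targets, Angptl4, a secreted inhibitor of lipoprotein lipase, was at 314, 257 and 229 FPKM after irradiation and at 54.2, 76.7 and 70.4 FPKM without (1.98 ± 0.19, adjusted p = 0.00041). It kept its direction and its call on the endothelial scale (0.70, adjusted p = 0.033). P4ha1, a collagen prolyl hydroxylase, was at 18.5, 20.9 and 18.2 FPKM against 9.70, 8.98 and 8.71 FPKM (1.0, adjusted p = 0.0010), and on the endothelial scale at -0.20 (adjusted p = 0.40). Bnip3, a mitophagy receptor, and Ankrd37 did not pass (adjusted p = 0.34 and 0.19), and Car9 did not pass the filter on low values.

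Other genes of these pathways were taken from pathway lists. Of 20 other HIF pathway genes tested, 8 were higher and 2 lower, among them the vessel peptides Adm (28.0 ± 3.40 against 5.01 ± 1.08 FPKM) and Edn1 (10.5 ± 3.27 against 1.44 ± 0.186 FPKM) and the mitophagy gene Bnip3l, which fell (31.8 ± 4.76 against 85.3 ± 8.42 FPKM). Of 16 other glycolysis genes 5 were higher and 6 lower. Bpgm, which makes the red cell metabolite that loosens oxygen from haemoglobin, fell from 170 ± 57.7 to 4.53 ± 1.63 FPKM. Erythroid markers fell from a sum of 30357 to 33788 FPKM to 311 to 786 FPKM. In the pentose phosphate pathway 5 of 7 genes were lower and none higher, with Taldo1 at 92.7 ± 18.5 against 315 ± 14.5 FPKM. In the citric acid cycle 3 of 16 were higher and none lower.

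Leaving out 1 library moved the count of 18 called members to 11 for bone EC replicate 1, bone EC replicate 2 and irradiated bone EC replicate 3. Over all genes, 41.9% were called with every library and 21.3% without replicate 2 of both groups. The share of all genes under each single omission is not given here, so the drop cannot be read as particular to the members. For Slc16a3, Slc2a3, Hif1a and Angptl4 every library of one group lay beyond every library of the other.

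Vav1 DTX EC were compared with Vav1 control EC. A set of 7 enzymes, most of them in the lower steps from Tpi1 to Ldha, rose, and the carriers Slc2a3 and Slc16a3 fell. Of 31 members tested 9 were higher and 5 lower, 45.2%, where 26.3% of all 11664 genes tested were called, 11.3% higher and 15% lower. The groups did not overlap for 21 of the 31, and for 46.3% of all genes. The enzymes counted 7 higher and 3 lower of 15 with a median difference of 0.62, against 0.03 over all genes. Of the 4 HIF genes only Egln3 was called.

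Ldha was at 702, 463 and 763 FPKM in Vav1 DTX EC and at 375, 347 and 327 FPKM in Vav1 control EC, a difference of 0.84 ± 0.20 (adjusted p = 0.023). Pgam1 was at 160, 84.8 and 148 FPKM against 63.0, 64.9 and 58.9 FPKM (1.01, adjusted p = 0.021), and Eno1 at 464, 243 and 414 FPKM against 209, 194 and 194 FPKM (0.85, adjusted p = 0.039). In each, replicate 2 of the DTX group was the lowest of its group and still above every control. Tpi1, Gapdh, Pgk1 and Pfkp also rose, by 0.95, 0.68, 0.67 and 0.62. The 3 enzymes that fell were Ldhb, from 26.4 ± 0.424 to 12.1 ± 1.31 FPKM (-1.07, adjusted p = 0.0012), Pfkm, from 6.86 ± 1.15 to 2.75 ± 0.184 FPKM (-1.06, adjusted p = 0.0034), and Hk2, from 4.97 to 2.77 FPKM (-0.67, adjusted p = 0.017).

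Slc16a3 was at 17.1, 8.71 and 20.1 FPKM in the DTX group and at 79.9, 74.2 and 76.9 FPKM in its control (-2.33 ± 0.28, adjusted p = 0.0014). Slc2a3 was at 13.4, 5.89 and 14.0 FPKM against 31.2, 26.3 and 24.7 FPKM (-1.30 ± 0.30, adjusted p = 0.020). Neutrophil markers summed to 35357 to 83410 FPKM in the DTX group and 85926 to 95391 FPKM in its control. Erythroid markers were at 1178 to 2358 FPKM against 31091 to 60971 FPKM. Their part was not tested. Slc2a1 and Slc16a1 did not pass (adjusted p = 0.46 and 0.58).

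Replicate 2 of the DTX group went its own way in the hypoxia genes. Angptl4 was at 137, 594 and 84.1 FPKM against 39.4, 45.3 and 58.7 FPKM in the control. Bnip3 was at 16.7, 65.4 and 28.9 FPKM, Pfkfb3 at 4.99, 25.3 and 5.79 FPKM, Epas1 at 9.72, 38.9 and 12.7 FPKM and Hif1a at 35.1, 53.2 and 22.2 FPKM. That library was the highest of its group in all 5 genes, the lowest in Ldha, Eno1, Pgam1, Gpi1 and Pkm, and held endothelial markers at 3051 FPKM against 1567 and 1370 FPKM. Angptl4, Bnip3 and Pfkfb3 lay above every control but missed the threshold (adjusted p = 0.063, 0.082 and 0.13). Egln3, at 7.07, 5.0 and 7.26 FPKM against 2.84, 3.12 and 2.82 FPKM (0.91, adjusted p = 0.0080), and Pdk1, at 9.16, 8.00 and 6.60 FPKM against 4.2, 4.56 and 4.04 FPKM (0.75, adjusted p = 0.012), rose in all 3 libraries.

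Without that library 22 of 31 members were called, 16 higher and 6 lower, where 41.6% of all genes were called. The enzymes were then 11 higher and 3 lower of 15, and Angptl4 (1.17, adjusted p = 0.0070) and Bnip3 (0.69, adjusted p = 0.038) passed. Without any one of the 3 control libraries 4 members were called and none of the enzymes was higher, where 10.1% to 10.8% of all genes were called. Without DTX replicate 1 there were 7, again with no enzyme higher and with 19.4% of all genes called. Without DTX replicate 3 there were 10, with 1 enzyme higher and 21.6% of all genes called. Scaling to endothelial markers left 4 called, 1 higher and 3 lower, with the median of all genes at -0.24. Over all genes it called 1454 in place of 3065, so the lower count cannot be read as particular to the members. Of the 15 enzymes 0 were then higher and 2 lower, with a median 0.56 above that of all genes.

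Of 16 other glycolysis genes 1 was higher and 8 lower, including Bpgm (15 ± 5.80 against 265 ± 74.8 FPKM) and Eno3, the muscle enolase (2.49 ± 0.469 against 12.4 ± 2.71 FPKM). Of 19 other HIF pathway genes 6 were higher, with Edn1 at 12.8 ± 4.63 against 1.45 ± 0.426 FPKM and the growth brake Ddit4 at 17.6 ± 9.72 against 4.89 ± 0.680 FPKM. Another 3 were lower, with Vegfa at 6.11 ± 1.99 against 13.1 ± 1.4 FPKM. The citric acid cycle counted 7 of 16 higher, led by Idh3a (86.8 ± 18.4 against 39.2 ± 3.33 FPKM), and the pentose phosphate pathway 1 of 7 lower (Taldo1). Over all genes tested 26.3% were called. Beside that share stood 56.2% of the other glycolysis genes and 47.4% of the other HIF pathway genes. Citric acid cycle genes stood at 43.8% and pentose phosphate genes at 14.3%.

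Apln+ EC were compared with diaphysis EC. A single member passed: Angptl4 was lower, 1 of 31 called, 3.23%, where 7.49% of all 11889 genes tested were called, 2.84% higher and 4.64% lower. Groups were fully apart for 8 of the 31, and for 27.8% of all genes. Angptl4 was at 6.30, 19.1 and 37.6 FPKM in Apln+ EC and at 78.9, 151 and 196 FPKM in diaphysis EC, a difference of -2.91 ± 0.64 (adjusted p = 0.045). The groups do not overlap, yet each is spread widely.

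Apln+ EC replicate 1 shaped the other values. Gpi1 was at 295, 125 and 99.7 FPKM, Slc2a3 at 46.2, 12.5 and 13.1 FPKM, Slc16a3 at 102, 24.2 and 44.8 FPKM and Pfkfb4 at 24.3, 5.21 and 5.37 FPKM. Epas1 was lowest in the same library, at 5.74, 23.1 and 21.6 FPKM. Its neutrophil markers summed to 143104 FPKM against 54898 and 42599 FPKM in replicates 2 and 3, and its endothelial markers to 1234 FPKM against 5088 and 5763 FPKM. Those 4 genes were also high in whole marrow, and the part of these cells was not tested. Without it 4 of 31 members were called, where 33.3% of all genes were: Angptl4 (-2.26, adjusted p = 0.0052), Ldhb (-0.97, adjusted p = 0.00071), Slc16a1 (-1.41, adjusted p = 0.00069) and, higher, Hk1 (0.45, adjusted p = 0.036). Slc16a1 was at 41.0, 16.9 and 21.8 FPKM against 51.3, 61.0 and 47.1 FPKM. Without any one diaphysis library, or without Apln+ EC replicate 2, the count was 0, as it was with a pseudocount of 0.1 and with 2 other filters on low values, so the call of Angptl4 did not hold under those settings.

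Enzyme differences were small in this comparison, from -0.79 for Ldhb to 0.55 for Hk1, with 0 of 16 called and a median of 0.04, the same as over all genes. The HIF genes lay between -0.13 and 0.05. A missed threshold does not show that the groups are alike. Of the other glycolysis genes 3 of 15 were lower and none higher, where 7.49% of all genes tested were called. Of 21 other HIF pathway genes 1 was higher and 1 lower, and none of 6 pentose phosphate or 16 citric acid cycle genes was called.

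9Gy1D EC were compared with Esm1+ EC. These groups differ in reporter line and drug as well as in irradiation, and the parts of these cannot be told apart. Every one of the 16 enzymes was lower in 9Gy1D EC, though Aldoc passed the filter on low values only through Esm1+ EC. Hif1a, Epas1, Egln1, Angptl4, P4ha1 and Pdk1 were higher. When libraries were scaled to endothelial markers, each of those 6 but Angptl4 turned negative. Among the negative ones only Egln1 was called lower, and Hif1a, Epas1, P4ha1 and Pdk1 did not pass. Of 31 members tested 6 were higher and 18 lower, 77.4%, where 43.7% of all 11746 genes tested were called, 20.6% higher and 23.1% lower. Groups were fully apart for 24 of the 31, and for 57.3% of all genes. The enzymes had a median difference of -1.09, and all genes one of 0.00.

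Pkm was at 887, 582 and 625 FPKM in 9Gy1D EC and at 1593, 1647 and 1519 FPKM in Esm1+ EC, a difference of -1.21 ± 0.20 (adjusted p = 0.0029). Tpi1 was at 51.8, 39.3 and 36.8 FPKM against 112, 115 and 132 FPKM (-1.48, adjusted p = 0.00053), and Eno1 at 185, 118 and 123 FPKM against 324, 330 and 321 FPKM (-1.22, adjusted p = 0.0022). Ldha was at 214, 158 and 169 FPKM against 326, 323 and 326 FPKM (-0.86, adjusted p = 0.0033). None of these groups overlap. The 16 differences ran from -0.57 for Pfkl to -1.49 for Aldoc. Aldoc averaged 0.205 FPKM in 9Gy1D EC and passed the filter on low values only through Esm1+ EC. Its test could therefore only come out lower.

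The carriers that fell in irradiated bone EC did not pass the test here, though both were called lower on the endothelial scale (-1.56 for Slc16a3 and -2.05 for Slc2a3). Slc16a3 was at 101, 77 and 67.1 FPKM in 9Gy1D EC and at 87.1, 84.5 and 64.7 FPKM in Esm1+ EC (0.04 ± 0.19, adjusted p = 0.87). Slc2a3 was at 57.6, 37.9 and 69.0 FPKM against 77.3, 77.2 and 66.3 FPKM (-0.46, adjusted p = 0.13). The groups overlap for both. Slc16a1 was lower, at 12.1, 23.1 and 15.7 FPKM against 27.3, 27.7 and 37.7 FPKM (-0.86, adjusted p = 0.026), and Pfkfb4 was at 14.6 ± 0.636 against 27.9 ± 1.74 FPKM (-0.89, adjusted p = 0.0012). Both irradiated endothelial groups received 9 Gy, yet Slc16a3 averaged 81.7 FPKM in 9Gy1D EC and 3.21 FPKM in irradiated bone EC, with neutrophil markers at 28241 to 49815 and 1000 to 4436 FPKM. They stand in different tables and were not tested against each other.

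Hif1a was at 38.7, 51.5 and 57.5 FPKM in 9Gy1D EC and at 22.4, 21.2 and 16.7 FPKM in Esm1+ EC (1.24 ± 0.19, adjusted p = 0.0020). Epas1 was at 16, 21.7 and 38.4 FPKM against 12.9, 11.4 and 6.92 FPKM (1.16, adjusted p = 0.029), and Egln1 at 19.2 ± 2.78 against 13.5 ± 0.965 FPKM (0.47, adjusted p = 0.037). Egln3 did not pass (adjusted p = 0.34). Endothelial markers summed to 3861 to 5605 FPKM in 9Gy1D EC and 1053 to 2005 FPKM in Esm1+ EC, and when scaled to them Hif1a, Epas1 and Egln1 turned to -0.33, -0.36 and -1.06, with the median of all genes at -1.36. Egln1 was called lower there (adjusted p = 0.01), and Hif1a and Epas1 did not pass (adjusted p = 0.25 and 0.29). All 16 enzymes were lower on that scale, with a median of -2.54, and 1 member was higher and 26 lower where 80.7% of all genes were called.

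Angptl4 (chr17:33773750-33781830) had the largest difference of any member in this comparison, at 127, 249 and 134 FPKM in 9Gy1D EC against 6.35, 5.77 and 4.86 FPKM in Esm1+ EC (4.62 ± 0.26, adjusted p = 5.2e-05). It was higher on the endothelial scale too (3.09, adjusted p = 5.8e-05). P4ha1 was at 19.0, 22.4 and 19.4 FPKM against 10.4, 9.5 and 10.3 FPKM (0.94, adjusted p = 0.0014) and on the endothelial scale at -0.58 (adjusted p = 0.10). Neutrophil markers were at 79385 to 86127 FPKM and cartilage markers at 1005 to 2089 FPKM in Esm1+ EC, against 28241 to 49815 and 1.3 to 7.35 FPKM in 9Gy1D EC. Their part in these differences was not tested.

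With Esm1+ EC replicates 1 and 2 averaged to 1 sample, 18 of 30 members were called, where 30.6% of all genes were. The enzymes were then 13 lower of 15, Hif1a (1.30, adjusted p = 0.0082) and Epas1 (1.28, adjusted p = 0.048) passed, and Egln1 did not (adjusted p = 0.12). Pdk1 (0.64, adjusted p = 0.093) and Slc16a1 (-0.93, adjusted p = 0.051) did not pass either.

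The pentose phosphate pathway followed the enzymes, with 6 of 6 genes lower, led by G6pdx, its first step (81.8 ± 26.2 against 359 ± 6.78 FPKM). The citric acid cycle had 10 of 16 lower and none higher, with Idh3a at 18.7 ± 3.09 against 38.5 ± 3.99 FPKM. Of 16 other glycolysis genes 3 were higher and 5 lower. Hk3, a hexokinase of myeloid cells, was at 71.2 ± 38.7 against 212 ± 6.10 FPKM. Of 22 other HIF pathway genes 6 were higher, led by Adm (82.9 ± 21.3 against 2.82 ± 1.29 FPKM) and Edn1 (32.7 ± 4.85 against 1.92 ± 0.575 FPKM), and 5 were lower.

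**Figure D4:**
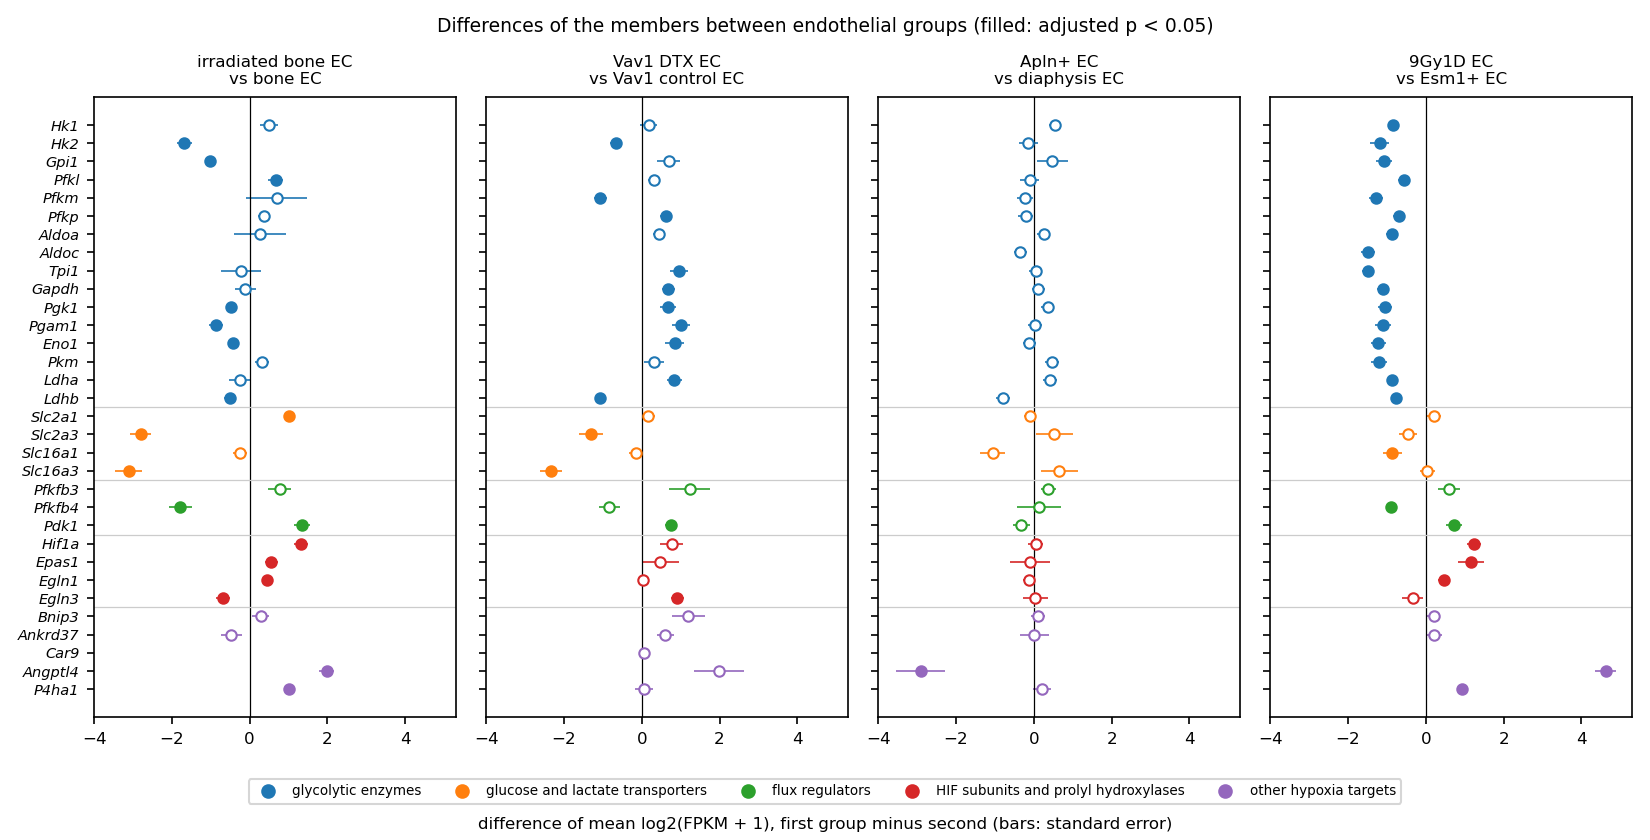
Difference of mean log2(FPKM + 1) for each gene in the 4 endothelial comparisons, with standard errors as bars, coloured by role and filled where the adjusted p was below 0.05. In 9Gy1D EC against Esm1+ EC the 16 enzymes lie left of 0 and Hif1a, Epas1 and Egln1 right of it (these 3 lie below 0 when scaled to endothelial markers, only Egln1 with a call), while in Apln+ EC against diaphysis EC only Angptl4 is filled.

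The medians of the enzymes and of the HIF genes differed in sign in 3 of the 4 endothelial comparisons. In Apln+ EC against diaphysis EC both were near 0, at 0.04 and -0.03. In the irradiated and 9Gy1D comparisons the enzymes had median differences of -0.22 and -1.09 where the HIF genes had 0.51 and 0.81, and on the endothelial scale both were negative, at -1.48 and -2.54 against -0.73 and -0.71. On that scale the median of all genes was itself below 0 in both comparisons. It lay above the median of the enzymes and below that of the HIF genes. In the Vav1 DTX comparison the medians were 0.62 and 0.63, but 10 of 15 enzymes and 1 of 4 HIF genes passed. No test was made of the difference between roles. Within groups the order of the libraries varied. In Vav1 DTX EC the library with a HIF sum of 114 FPKM had an enzyme sum of 2269 FPKM, and the other 2, with 67.7 and 56.5 FPKM, had 3841 and 3831 FPKM. In irradiated bone EC replicate 2 was highest in both sums (157 and 2100 FPKM), and in Esm1+ EC replicate 3 was lowest in both (41.3 and 3239 FPKM). Egln3 differed from the other HIF genes: in Vav1 DTX EC it was lowest in that same replicate 2, as the enzyme sum was.

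**Figure D5:**
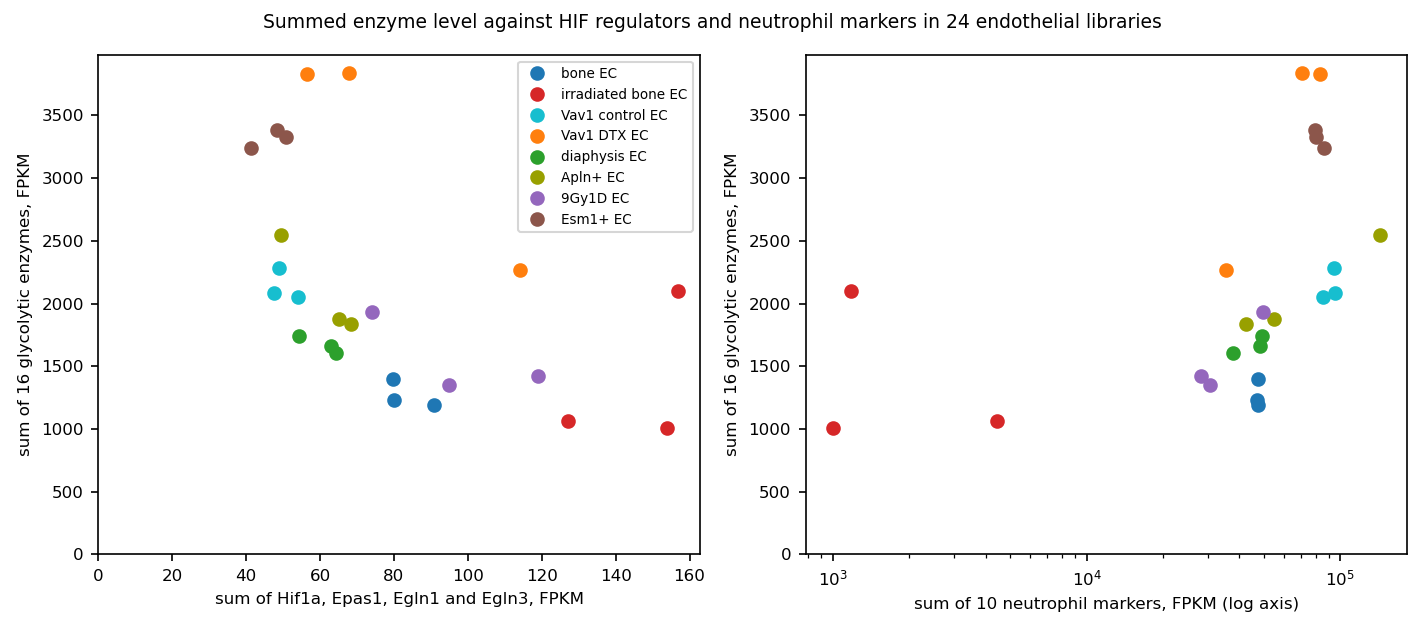
Sum of the 16 glycolytic enzymes in FPKM against the sum of Hif1a, Epas1, Egln1 and Egln3 in FPKM (left) and against the sum of 10 neutrophil markers on a log axis (right), 1 point per endothelial library. Enzyme sums of 3239 to 3841 FPKM occur at HIF sums of 41.3 to 67.7 FPKM, and irradiated bone EC replicate 2, the library with the most muscle transcripts, lies apart at 2100 FPKM. Libraries share tables and cell content, so the pattern is a description.

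Bone EC were also compared with the 3 populations of blood-forming cells in their table. These comparisons share the bone EC libraries. BMC and Lin- libraries were made with TruSeq Stranded Total RNA, and bone EC and LSK with SMART-Seq v4 and Nextera XT, so kit and cell type cannot be told apart against BMC and Lin-.

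Against LSK, 11 of 32 members were higher in bone EC and 10 lower, 65.6%, where 60.1% of all 14321 genes tested were called, 29.5% higher and 30.6% lower. Groups were fully apart for 23 of the 32, and for 66.5% of all genes. Slc16a3 (35.4 ± 14.3 against 2.29 FPKM, difference 3.40, adjusted p = 1.4e-05), Angptl4 (67.1 against 2.03 FPKM, 4.5), Epas1, Slc16a1 (41.3 against 14.2 FPKM, 1.47), Eno1 (94.3 against 45 FPKM, 1.06) and Gpi1 (108 against 60 FPKM, 0.84) were higher. Egln3 (2.95 against 19.1 FPKM, -2.34, adjusted p = 1.2e-05), Car9 (1.35 against 5.23 FPKM, -1.45), Pdk1 (4.01 against 12.0 FPKM, -1.38), Ldhb (14.7 against 34.9 FPKM, -1.18) and Aldoc (0.806 against 2.77 FPKM, -1.07) were lower. Aldoc passed the filter on low values through LSK and Epas1 through bone EC, so the direction of each was fixed by the filter. The enzymes split 5 higher and 6 lower of 16, and under TPM, a rescaling of every library to 1 total, which moved the median of all genes from -0.05 to -0.91, they split 1 and 9. Of the other HIF pathway genes 7 of 20 were higher and 6 lower, and of the pentose phosphate genes 5 of 7 were higher and 1 lower.

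Against Lin-, 17 of 31 members were higher in bone EC and 4 lower, 67.7%, where 66.6% of all 13255 genes tested were called, 35.8% higher and 30.8% lower. The groups did not overlap for 22 of the 31, and for 72.0% of all genes. The 4 that were lower were Hk1 (12.1 against 44.9 FPKM), Pfkm (9.38 against 28.8 FPKM), Pgk1 (35.1 against 72.6 FPKM) and Pdk1 (4.01 against 7.48 FPKM). Against BMC, 9 of 31 were higher and 10 lower, 61.3%, where 70.4% of all 13194 genes were called, 35.8% higher and 34.6% lower. The groups did not overlap for 22 of the 31, and for 74.7% of all genes. Without bone EC replicate 3 the count called was 11, and the share of all genes called without it is not given here. The largest falls were those of Hk2 (5.0 against 21.4 FPKM, -1.90), Slc16a3 (35.4 against 126 FPKM, -1.83), Pfkfb4 (10.2 against 37.1 FPKM, -1.79), Pgk1 (35.1 against 123 FPKM, -1.77) and Slc2a3 (21.6 against 72.0 FPKM, -1.72). Epas1 and Angptl4 (67.1 against 0.944 FPKM, 5.12) led the rise. Both averaged below 1 FPKM in BMC and passed the filter on low values through bone EC, so they could only come out higher. Under TPM, which moved the split of all genes to 6752 higher and 2996 lower, the members counted 15 higher and 6 lower. Against LSK and Lin- the share of members called in either direction lay near that of all genes, and against BMC it was lower. By direction the members leaned higher against Lin-, with a median difference of 0.72 against 0.07 over all genes.

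Lin- and BMC share a kit. Of 30 members tested 8 were higher in Lin- and 18 lower, 86.7%, where 57.5% of all 12428 genes tested were called, 29.1% higher and 28.4% lower. The groups did not overlap for 26 of the 30, and for 66.1% of all genes. Enzymes counted 4 higher and 10 lower of 15 with a median of -1.07, against 0.03 over all genes. Neutrophil markers summed to 46 to 251 FPKM in Lin- and 84083 to 111747 FPKM in BMC, megakaryocyte and platelet markers to 704 to 1202 against 13.7 to 27.2 FPKM, and stromal and osteoblast markers to 1221 to 3639 against 2.7 to 17.8 FPKM. Erythroid markers were at 1345, 1488 and 75131 FPKM in Lin- and 12487 to 14021 FPKM in BMC, so Lin- replicate 3 alone lay above BMC. The part of these cells in the differences was not tested. Pkm was at 116, 115 and 54.7 FPKM in Lin- and at 636, 519 and 452 FPKM in BMC (-2.54 ± 0.32, adjusted p = 0.00061), and Slc16a3 fell further (-5.29 ± 0.23, adjusted p = 1.3e-05). Hif1a was at 9.88 against 26.5 FPKM (-1.35, adjusted p = 0.00031). Pfkm (2.58), Hk1 (1.37), Pfkl (1.11) and Tpi1 (0.81) rose among the enzymes, with P4ha1 (1.01), Angptl4 (2.53), Pdk1 (0.56) and Epas1 (8.12 against 0.147 FPKM) beside them. Angptl4 and Epas1 averaged below 1 FPKM in BMC and passed the filter on low values through Lin-. Pklr, the pyruvate kinase of liver and red cells, was at 44.2 ± 6.42 against 1.86 ± 0.461 FPKM while Pkm fell. Citric acid cycle genes went the other way from the enzymes, with 13 of 16 higher and none lower, and pentose phosphate genes were 1 higher and 6 lower of 7.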

How the data were processed

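The authors deposited 4 tables of FPKM values, 38926 rows each. Per the submitters' processing notes the tools were bcl2fastq 2.19.1.403, TopHat2 2.1.1, HTSeq 0.6.1 and DESeq2 1.18.1, with mm10. After 27 names turned into dates were left out, 38899 genes remained. Each gene's deposited FPKM values were whole multiples of 1 read (within 0.005 of a read for 100.0% of genes), which gave depths of 1.55 to 12.29 M reads. The authors' divisor was 0.849 to 1.477 times that depth, so the scale of a library is not its total alone.

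Differences were tested within a table with limma 3.58.1 (R 4.3.3) on log2(FPKM + 1), keeping genes that reached 1 FPKM in 3 or more of the 6 libraries compared, two-sided, with Benjamini-Hochberg adjustment over all genes tested and calls at an adjusted p under 0.05. A fold on this scale understates changes of low genes. The tables were normalized separately, so levels across them stand side by side without a test. The method was tested on simulated data. The members and lists were chosen with earlier results of these data known. All 32 members are accounted for, and of each list of other pathway genes up to 2 in each direction were named, those with the largest difference among genes called, not overlapping between groups and averaging at least 5 FPKM in the higher group; examples are given. Alternatives were other pseudocounts, filters and scalings, limma voom on recovered reads, a replicate block and leaving out each library.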

Additional observations from a re-analysis of the deposited data

How the results depend on the processing

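Of 3979 values of single genes under the alternatives, 21 turned sign with a call on at least 1 side and 120 turned sign with no call on either side. Scaling to the endothelial markers, an alternative chosen after seeing the data, gave 19 of the 21. In irradiated bone EC these were Hk1 (-0.70), Pfkl (-0.56), Pfkp (-0.80), Pkm (-0.97), Slc2a1 (-0.23), Epas1 (-0.70), Egln1 (-0.77), Bnip3 (-0.88) and P4ha1 (-0.20). In 9Gy1D EC they were Slc2a1 (-1.36), Slc16a3 (-1.56), Pfkfb3 (-0.74), Pdk1 (-0.62), Hif1a (-0.33), Epas1 (-0.36), Egln1 (-1.06), Bnip3 (-1.33), Ankrd37 (-0.74) and P4ha1 (-0.58). Under TPM, Pgam1 (-0.03) and Pkm (-0.07) turned in bone EC against LSK. The endothelial scaling called 9992 genes in place of 5463 in irradiated bone EC, 9517 in place of 5133 in 9Gy1D EC, 1454 in place of 3065 in Vav1 DTX EC and 464 in place of 890 in Apln+ EC. In Vav1 DTX EC the endothelial scaling left 4 members called.

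In Apln+ EC the single call became 0 with a pseudocount of 0.1, with no filter and with a mean of at least 5 FPKM, 3 under TPM and 2 with voom on recovered reads. Without replicate 2 of both bone EC groups, also chosen after seeing the data, 10 members and 2540 genes were called. Leaving out each library gave 11 to 19 members for irradiated bone EC, 4 to 22 for Vav1 DTX EC, 0 to 4 in Apln+ EC and 17 to 24 in 9Gy1D EC. It gave 17 to 21 in bone EC against LSK, 18 to 23 against Lin-, 11 to 16 against BMC and 20 to 24 in Lin- against BMC. For most of these omissions the share of all genes called is not given here, so a moved count is not a result about the members. The cause was not tested.

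All genes called in Apln+ EC were 3835 without its replicate 1 and 311 without its replicate 2. A mean of at least 5 FPKM, which tests fewer genes, called 445 there, 5083 in bone EC against LSK, 5624 against Lin- and 6069 against BMC. TPM called 13810 genes against LSK in place of 8608. It moved the split of higher and lower genes to 4167 and 2033 for irradiated bone EC, 2926 and 1424 for Vav1 DTX EC, 3787 and 2062 in 9Gy1D EC, 2427 and 11383 against LSK and 4462 and 2868 in Lin- against BMC. In the same order the split had been 2938 and 2525, 1317 and 1748, 2422 and 2711, 4219 and 4389, and 3615 and 3529. Voom on recovered reads, an added alternative, called 5525, 3248, 908 and 5151 genes in the 4 endothelial comparisons, with 3005 higher and 6624 lower against LSK and 6107 and 3301 against BMC.

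Replicate numbers did not pair the samples in any comparison. With the replicate block 14 members were called for irradiated bone EC, 12 for Vav1 DTX EC, 1 in Apln+ EC, 22 in 9Gy1D EC, 21, 19 and 19 in bone EC against LSK, Lin- and BMC, and 23 in Lin- against BMC. With the replicate block all genes called were 4402, 2123, 891, 4521, 8192, 8386, 9115 and 6782 in that order. Depth limits genes near 1 FPKM most, such as Car9, Aldoc and Ankrd37, which rest on few reads.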
